A study of Mus musculus with 12 samples.

Results

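The genes described here are 9 components and partners of JAK-STAT signalling: the growth hormone receptor Ghr, the kinases Jak1, Jak2 and Tyk2, the transcription factors Stat3, Stat5a, Stat5b and Stat6, and the transcriptional repressor Bcl6. They were chosen by gene symbol, as the array features annotated with these symbols, and their features were averaged per gene. All 9 had a ratio on every array, among 16549 genes tested in all. They were read from 39 features, of which Stat6 had 12, Stat3 11, Ghr 5, Jak1 and Stat5b 3 each, Jak2 2, and Tyk2, Stat5a and Bcl6 1 each.

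Hepa 1-6, a mouse hepatoma line, and AML12, a hepatocyte line from a mouse transgenic for transforming growth factor alpha, were each profiled in 3 groups of 2 arrays, which gives 12 arrays. In each line, cells received prolactin from ovine pituitary at 200 ng/mL, received actinomycin D at 10 µg/mL, or stayed as serum-free controls, with 8 h of treatment. All groups had serum and other additives withdrawn overnight beforehand, and only AML12 had been maintained with dexamethasone and insulin. Each array set Cy5-labelled sample RNA against a Cy3-labelled reference pool from 11 mouse cell lines, so values are log2 ratios to that pool. They are not levels that can be compared between genes. Both lines are listed with hepatoma as their cell source in the labels.

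In this pathway a cytokine or hormone receptor without enzyme activity of its own, such as the receptors for growth hormone and prolactin, holds a Janus kinase that phosphorylates a STAT protein, which then enters the nucleus and binds DNA. In liver, growth hormone acts through Jak2 and Stat5b on growth and on sex-biased genes. BCL6 is a zinc finger repressor whose DNA sites resemble those of STAT5, and in liver it is known as an antagonist of STAT5 at shared target genes. Actinomycin D blocks transcription, so that RNAs already present decay at their own rates.

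Every test below was made with limma in 1 model over the 12 arrays, with p-values adjusted over all 16549 genes by the Benjamini-Hochberg method at a threshold of 0.05. The words rose, fell and changed are kept for genes that passed. The design names the 2 arrays of a group as biological replicates but does not say how they were separated, so p-values measure the spread between these samples. Replicate arrays correlated at 0.975 to 0.985, and 37397 to 40281 features per array carried a ratio. Hepatocyte markers were above the reference for 10 of 10 measured genes in Hepa 1-6 controls, with a median log2 ratio of 3.24, and for 8 of 10 in AML12 controls, with a median of 3.79. Of 4 biliary markers, 1 was above the reference in Hepa 1-6 controls, Sox9 at 0.93, with Krt19, a biliary keratin, lowest at -4.15. In AML12 controls 3 were above it, with Krt19 highest at 4.07 and Epcam lowest at -4.83. None of 5 stellate cell and fibroblast markers was above it in any group. Of 4 leukocyte markers none was above it in Hepa 1-6 controls, where Ptprc was lowest at -8.07, and in AML12 controls 1 was, Cd14 at 0.72, with Ptprc at -5.50. Cd14 stood at 2.06 in AML12 with actinomycin D. Of 4 endothelial markers 1, Tek, was above it in the controls of each line, at 0.49 in Hepa 1-6 and 0.36 in AML12.

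In RefSeq's GRCm38.p6 the members are protein-coding genes. Ghr lies at chr15:3317755-3583352, Jak1 at chr4:101151974-101265282, Jak2 at chr19:29251803-29313095 and Tyk2 at chr9:21104068-21131393. Stat5b, Stat5a and Stat3 follow each other on chromosome 11, at chr11:100780731-100859004, chr11:100859351-100885169 and chr11:100886806-100939594, and Stat6 lies at chr10:127642955-127660987. Bcl6 lies at chr16:23965050-23988866. Of the 9 genes it was the only one with a STAT-type motif in the 250 bases before an annotated start site, and its sequences are shown because Bcl6 is also the member that changed with prolactin. The motif searched was TTCNNNGAA, which reads the same on both strands. It occurred in 2 of the 13 start-site windows of the 9 genes, both of them windows of Bcl6. Over all 32851 mouse windows of the same length the share was 7.02%. Counted by gene, it was 1 of the 9 members, near the share of 8.13% of 27025 mouse genes. Capitals mark the motif in the stretches before the outer start site, chr16:23988867-23989102, and before the inner start site, chr16:23981284-23981533. Both are printed 5′ to 3′ on the minus strand.
Bcl6 outer start site: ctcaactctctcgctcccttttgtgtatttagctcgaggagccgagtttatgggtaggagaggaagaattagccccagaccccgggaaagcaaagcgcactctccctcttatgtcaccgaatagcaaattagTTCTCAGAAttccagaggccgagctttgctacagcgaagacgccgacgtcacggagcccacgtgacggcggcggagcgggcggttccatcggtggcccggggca
Bcl6 inner start site: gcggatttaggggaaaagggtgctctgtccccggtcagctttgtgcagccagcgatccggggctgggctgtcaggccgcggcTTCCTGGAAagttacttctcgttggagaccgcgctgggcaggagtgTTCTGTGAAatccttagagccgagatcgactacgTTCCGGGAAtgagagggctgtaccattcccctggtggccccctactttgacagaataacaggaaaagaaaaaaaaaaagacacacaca
The outer stretch held 1 match, TTCTCAGAA, which begins 104 bases before the end of the printed stretch. The 14 bases between that end and the annotated start site are not printed. The inner stretch held 3: TTCCTGGAA at 168, TTCTGTGAA at 122 and TTCCGGGAA at 88 bases before the start. TTCCTGGAA also fits TTCCTNGAA, the form searched as the BCL6-type motif, which is a special case of the STAT motif and was found in 1.31% of all windows. These matches are letters in a sequence, and no binding was measured.

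The comparison of prolactin with control asked whether the hormone altered the RNA of the pathway that carries its own signal. In Hepa 1-6 no member passed. In AML12, Bcl6 fell and the other 8 genes had no call. Across all genes 0.0363% passed in Hepa 1-6 and 1.27% in AML12, so the 1 member called of 9 in AML12 stood against that background. Those all-gene counts moved with single arrays: the 210 genes called in AML12 became 30 without the second AML12 control array and 57 without either Hepa 1-6 prolactin array, and the 6 called in Hepa 1-6 ran from 1 to 13.

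In Hepa 1-6, Bcl6 had log2 ratios of -1.54 and -1.56 with prolactin, against -1.63 and -1.52 in controls. The prolactin arrays lay within the range of the controls. The change was 0.02 ± 0.06 (SE, n = 2 arrays per group, limma adjusted p = 0.959), with a 95% confidence interval of -0.12 to 0.17.

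In AML12, Bcl6 had -0.41 and -0.49 with prolactin, against 0.37 and 0.38 in controls. The groups did not overlap, and the gap was far wider than the spread within either. The change was -0.82 ± 0.06 (SE, 95% confidence interval -0.96 to -0.68, limma adjusted p = 0.00188), which is a ratio 1.77-fold lower in prolactin-treated AML12. In bulk RNA, fewer cells that express a gene and less of its RNA per cell cannot be told apart. This call held with each array left out, and was lost when the fit used only the 6 AML12 arrays (adjusted p = 0.0903) or only the 4 arrays compared (adjusted p = 0.188), fits that leave fewer residual degrees of freedom.

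The responses of Hepa 1-6 and AML12 differed by 0.85 ± 0.09 for Bcl6 (SE, limma adjusted p = 0.0163). It was the 1 member to pass this test of the difference, against 0.121% of all genes. The size of that difference ranged from 0.79 to 0.90 when each array was left out in turn. Its call was lost without either Hepa 1-6 prolactin array, without the first Hepa 1-6 control array and without either AML12 control array (adjusted p = 0.0327 to 0.124 over the 12 arrays).

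By limma, none of the 9 members passed in prolactin-treated Hepa 1-6, with 1 member and 1359 genes at an unadjusted p under 0.05. That member was Stat5a, the STAT5 gene best known from mammary gland, with -0.55 and -0.62 on prolactin arrays, against -0.85 and -0.81 on control arrays. Its groups did not overlap, and its change of 0.24 ± 0.08 had an adjusted p of 0.512. Jak2, the kinase that the prolactin and growth hormone receptors hold, had 1.77 and 1.75 with prolactin, against 0.91 and 1.83 in controls. The first control array stood apart from the other 3, and the change of 0.39 ± 0.24 did not pass (SE, adjusted p = 0.742). Without that array it was -0.066, and without the other control array 0.86, with no call in either case.

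In AML12 the changes of the other 8 members under prolactin ran from -0.09 for Tyk2 to 0.18 for Stat3, with adjusted p-values of 0.342 to 0.955. Stat5a had ratios of -0.25 and -0.25 with prolactin, against -0.23 and -0.43 in AML12 controls. Stat5b, the STAT5 gene that carries most of the growth hormone response in liver, had 0.10 and 0.06, against 0.15 and 0.12. The 95% interval of its change, -0.27 to 0.15, is for the mean of its 3 features and does not reach the change of Bcl6. Tested singly, 1 of these features passed at -0.44 (limma adjusted p = 0.0482), as described further on. The others had 0.16 and 0.10, with no call. Ghr had -1.41 and -1.35 with prolactin, against -1.48 and -1.54 in controls. These Ghr groups did not overlap, but the change of 0.13 ± 0.07 did not pass (SE, adjusted p = 0.384).

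**Figure D1:**
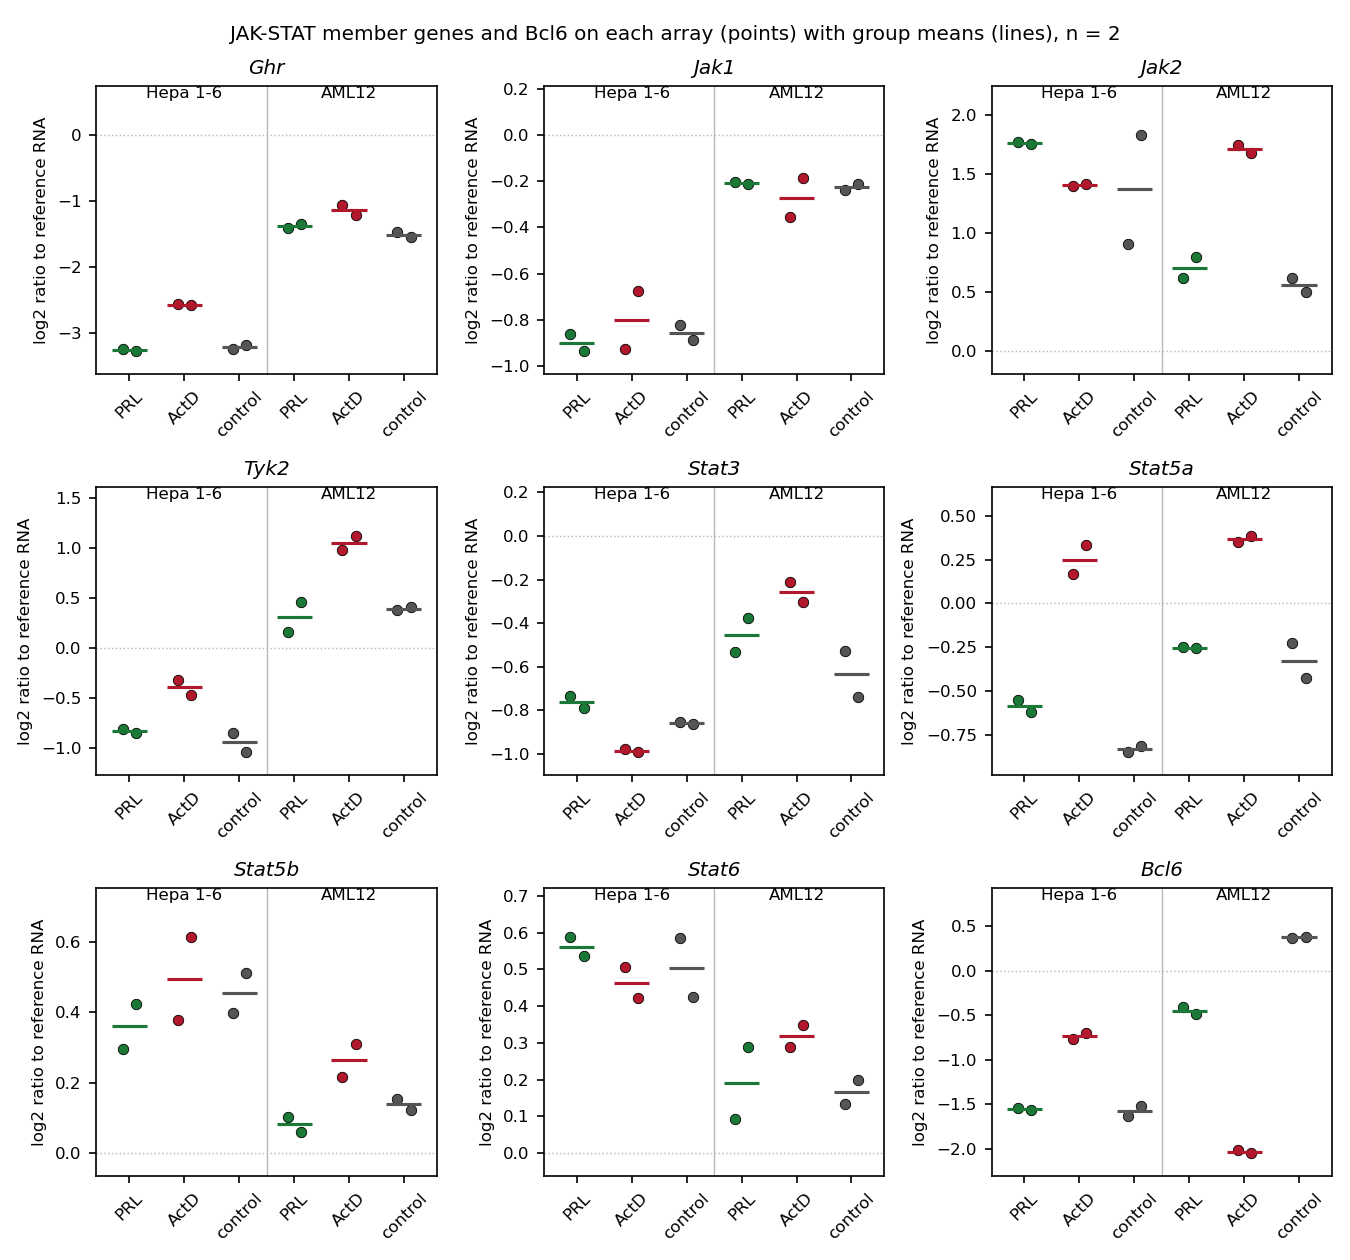
Each panel shows 1 gene, with the log2 ratio to the reference pool on the y axis and the 6 groups on the x axis (PRL, prolactin; ActD, actinomycin D). Points are arrays and lines are means of 2 arrays. For Bcl6 the prolactin and control arrays of Hepa 1-6 overlap, whereas the AML12 arrays separate, at -0.41 and -0.49 with prolactin, -2.01 and -2.05 with actinomycin D and 0.37 and 0.38 in controls.

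The genes around the pathway are given from lists of its receptors, regulators, targets and partners. None of the 13 other cytokine receptor genes tested (of 19 listed) passed with prolactin in Hepa 1-6 or in AML12, with median changes of 0.05 and 0.07. None of the 17 other JAK, STAT and regulator genes (of 18 listed) passed in Hepa 1-6 or in AML12, with medians of -0.04 and -0.06. Nor did any of the 12 BCL6 partner genes (of 15 listed), with medians of -0.04 and 0.06. Over all genes the median change was -0.0042 in Hepa 1-6 and -0.03 in AML12. Of all genes 0.0363% passed in Hepa 1-6 and 1.27% in AML12, so lists this short without a call are not unusual. The prolactin receptor gene is not analysed here.

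Among 14 STAT5 target genes, none passed in prolactin-treated Hepa 1-6, where the list median was -0.07, and 3 rose and 1 fell in AML12, where it was -0.01. Cish, a feedback inhibitor of STAT5 signalling, had -1.08 and -1.22 in Hepa 1-6 with prolactin, against -0.99 and -0.83 in controls, and did not pass there. It had 1.76 and 1.85 in AML12 with prolactin, against -0.26 and -0.48 in controls, and rose by 2.17 ± 0.13 (SE, adjusted p = 0.000659). Socs2, an inhibitor of growth hormone receptor signalling, rose by 0.71 ± 0.06 (SE, adjusted p = 0.00297), and Cdkn2b, a cell cycle inhibitor, by 0.50 ± 0.07 (SE, adjusted p = 0.0206). Bcl2l1, the survival gene for BCL-XL, had 1.31 and 1.49 with prolactin, against 2.14 and 2.29 in controls, and fell by 0.82 ± 0.10 (SE, adjusted p = 0.0172). For Cish the lines' responses differed by -2.41 ± 0.18 (adjusted p = 0.00698) and for Socs2 by -0.68 ± 0.08 (adjusted p = 0.0388). In the fits on the 6 AML12 arrays and on the 4 arrays compared, limma called 0 of 16549 genes for prolactin in AML12, with 2244 and 2324 at an unadjusted p under 0.05, so the AML12 calls of these genes and of those in the next list were also lost there.

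Of 15 genes tested (17 listed) that are known as targets of repression by BCL6, mostly from B cells and liver, none passed in prolactin-treated Hepa 1-6, with a list median of -0.10, and 4 rose and none fell in AML12, with a median of 0.17. The AML12 counts of this list and of the STAT5 list stand beside the 1.27% of all genes called there. Both lists were chosen with earlier results of these data known, so these counts test nothing about the lists. Cish and Socs2 are on this list as well as on the STAT5 list. The others were Cxcl10, a chemokine, and Cdkn1b, the cell cycle inhibitor p27. In AML12, Cxcl10 had 0.14 and 0.93 with prolactin, against -0.64 and -0.91 in controls (change 1.31 ± 0.23 SE, limma adjusted p = 0.0423). Cdkn1b had 1.22 and 1.35 there, against 0.77 and 0.60 (change 0.60 ± 0.10 SE, adjusted p = 0.0402). Cxcl10 was also higher with prolactin in Hepa 1-6, at 2.73 and 2.77 against 2.00 and 2.08, without passing. Cdkn1b had 0.11 and -0.06 in Hepa 1-6 with prolactin, against 0.37 and 0.29, and did not pass.

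**Figure D2:**
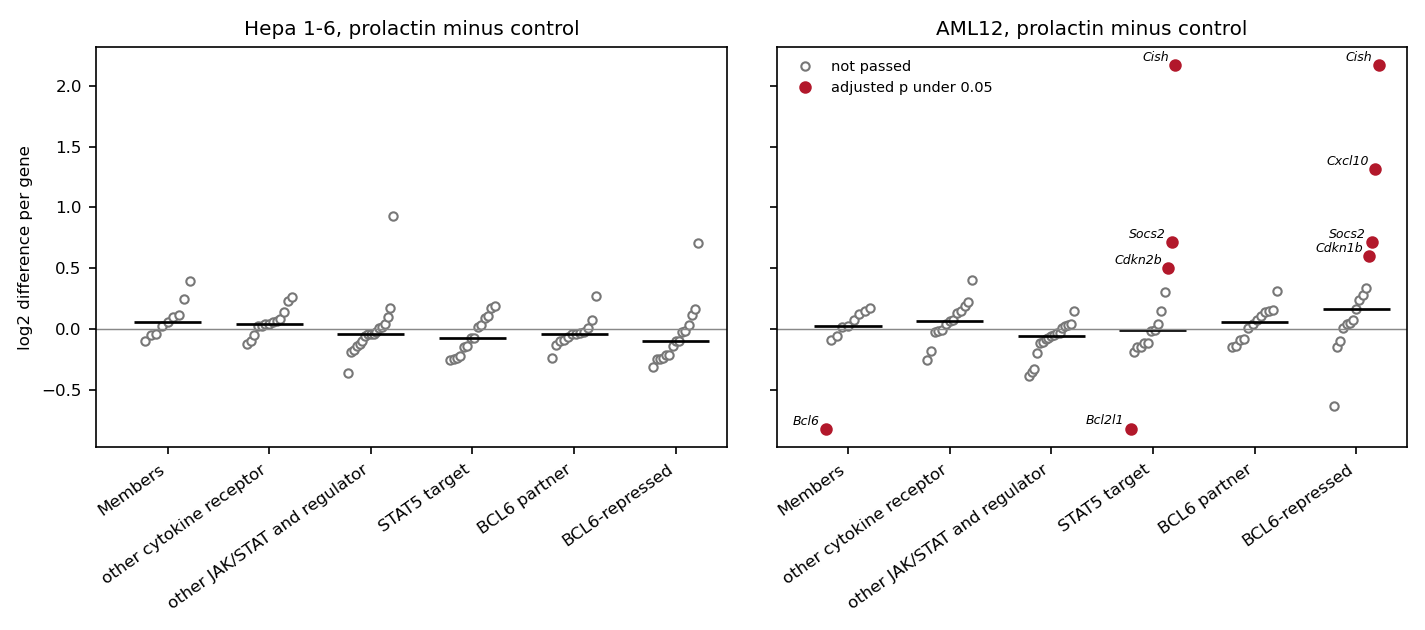
The y axis is the log2 difference between prolactin and control for each gene and the x axis the 9 members and 5 lists, with Hepa 1-6 on the left and AML12 on the right. Filled points passed the test, open points did not, and lines are list medians. No gene of these lists passed in Hepa 1-6, and in AML12 Bcl6 and Bcl2l1 fell by 0.82 each while Cish rose by 2.17. Cish and Socs2 are plotted under both the STAT5 targets and the BCL6-repressed genes.

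Under actinomycin D, Bcl6 moved in opposite directions in the lines and was the member with the largest difference between them. In Hepa 1-6 it had log2 ratios of -0.77 and -0.70 with actinomycin D, against -1.63 and -1.52 in controls. In AML12 it had -2.01 and -2.05 with actinomycin D, against 0.37 and 0.38 in controls. Neither line's groups overlapped. Bcl6 rose by 0.84 ± 0.06 in Hepa 1-6 (SE, limma adjusted p = 2.31e-05), to 1.79 times its control ratio, and in AML12 it fell by 2.40 ± 0.06 (SE, adjusted p = 1.77e-07), to a ratio 5.28-fold lower. The lines' responses differed by 3.24 ± 0.09 (SE, adjusted p = 2.03e-06), which ranks 50 by size among the 16549 genes. Over the 6 groups, Bcl6 was highest in AML12 controls and followed by prolactin-treated AML12, actinomycin D-treated Hepa 1-6, then the prolactin and control groups of Hepa 1-6, which did not differ beyond their spread, with actinomycin D-treated AML12 lowest.

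Actinomycin D changed much of the array, with 50.9% of all genes passing in Hepa 1-6 and 53.6% in AML12, so a member that passed is not unusual. Of the 9 members, 4 rose and none fell in Hepa 1-6, and 5 rose and 1 fell in AML12. Over all genes 27.9% were called higher and 23% lower in Hepa 1-6, and 28% higher and 25.5% lower in AML12. The ratios are set within each array, so a rise is relative to the other RNAs on it, and the loss of RNA per cell was not measured. The median change of the 9 members was 0.05 in Hepa 1-6 and 0.37 in AML12, beside 0.07 and 0.04 over all genes.

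Ghr, the growth hormone receptor, rose in both lines. It had -2.56 and -2.58 in actinomycin D-treated Hepa 1-6, against -3.24 and -3.18 in controls, and rose by 0.64 ± 0.07 (SE, adjusted p = 0.000138). In AML12 it had -1.06 and -1.22, against -1.48 and -1.54, and rose by 0.37 ± 0.07 (SE, adjusted p = 0.00205). The groups were apart in both lines. The difference between the responses, 0.27 ± 0.09, did not pass (SE, adjusted p = 0.0682). Ratios as low as those of Ghr in Hepa 1-6 can lie near the detection floor of the arrays, for which no marks were used here.

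Of the kinases, Tyk2, which serves interferon and interleukin receptors, rose in both lines. It had -0.32 and -0.47 in Hepa 1-6 with actinomycin D, against -0.84 and -1.04 in controls, a rise of 0.55 ± 0.11 (SE, adjusted p = 0.00461). In AML12 it had 0.98 and 1.12, against 0.38 and 0.41, a rise of 0.65 ± 0.11 (SE, adjusted p = 0.00173). Neither line's Tyk2 groups overlapped, and the difference in response was -0.11 ± 0.16 (SE, adjusted p = 0.667).

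Jak2 had 1.40 and 1.42 in Hepa 1-6 with actinomycin D, between the control values of 0.91 and 1.83. In AML12 it had 1.75 and 1.68 with actinomycin D, against 0.62 and 0.50 in controls, and rose by 1.15 ± 0.24 (SE, adjusted p = 0.00460). The groups overlapped in Hepa 1-6 and were far apart in AML12. The responses differed by -1.12 ± 0.34 (SE, adjusted p = 0.0430), a call that held with arrays left out only when the array was 1 of the Hepa 1-6 controls, at -1.58 without the first and -0.65 without the second. The wide spread of Jak2 came from 1 of its 2 features, which read 0.66 and 2.37 on the Hepa 1-6 control arrays, while the other feature, on the same transcript record, read 1.16 and 1.29. Without the first Hepa 1-6 control array Jak2 was called lower with actinomycin D in Hepa 1-6, at -0.42 (adjusted p = 0.0122), and without the second it was called higher, at 0.50 (adjusted p = 0.00574).

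Jak1, the kinase shared by interferon and gp130 receptors, was not called in either line. It had -0.93 and -0.67 in Hepa 1-6 with actinomycin D, against -0.82 and -0.89 in controls, and -0.36 and -0.19 in AML12, against -0.24 and -0.21. The groups overlapped in both lines, but its 3 features did not move alike, as described further on.

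Stat5a rose in both lines, and more in Hepa 1-6. It had 0.17 and 0.33 in Hepa 1-6 with actinomycin D, against -0.85 and -0.81 in controls, a rise of 1.08 ± 0.08 (SE, adjusted p = 3.10e-05). In AML12 it had 0.35 and 0.39, against -0.23 and -0.43, a rise of 0.69 ± 0.08 (SE, adjusted p = 0.000223). Its groups were widely separated in both lines. The responses differed by 0.38 ± 0.12 (SE, adjusted p = 0.0411). With arrays left out in turn, that call held only without the second AML12 control array or the first Hepa 1-6 actinomycin D array. Stat5b, which adjoins Stat5a on chromosome 11, was not called, with changes of 0.04 ± 0.09 in Hepa 1-6 and 0.12 ± 0.09 in AML12 (SE, adjusted p = 0.735 and 0.288). These are means of 3 features that, tested singly, passed in opposite directions in both lines, as described further on. The STAT5 genes are near-identical in much of their coding sequence, and cross-hybridisation between them was not tested.

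Stat3, the STAT of interleukin-6 and the acute phase response, had -0.98 and -0.99 in Hepa 1-6 with actinomycin D, against -0.85 and -0.86 in controls. In AML12 it had -0.21 and -0.30, against -0.53 and -0.74. The AML12 groups were apart and Stat3 rose by 0.38 ± 0.09 there (SE, adjusted p = 0.00644). In Hepa 1-6 the groups did not overlap, but the change of -0.13 ± 0.09 did not pass (SE, adjusted p = 0.251), and the responses differed by -0.50 ± 0.12 (SE, adjusted p = 0.0166). That call was lost without the first Hepa 1-6 control array or the first AML12 actinomycin D array. Stat6, the STAT of interleukin-4 signalling, was not called, at -0.04 in Hepa 1-6 and 0.15 in AML12 (adjusted p = 0.721 and 0.172). In all, 4 members differed between the lines in their response to actinomycin D, 2 in each direction, against 30% of all genes.

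**Figure D3:**
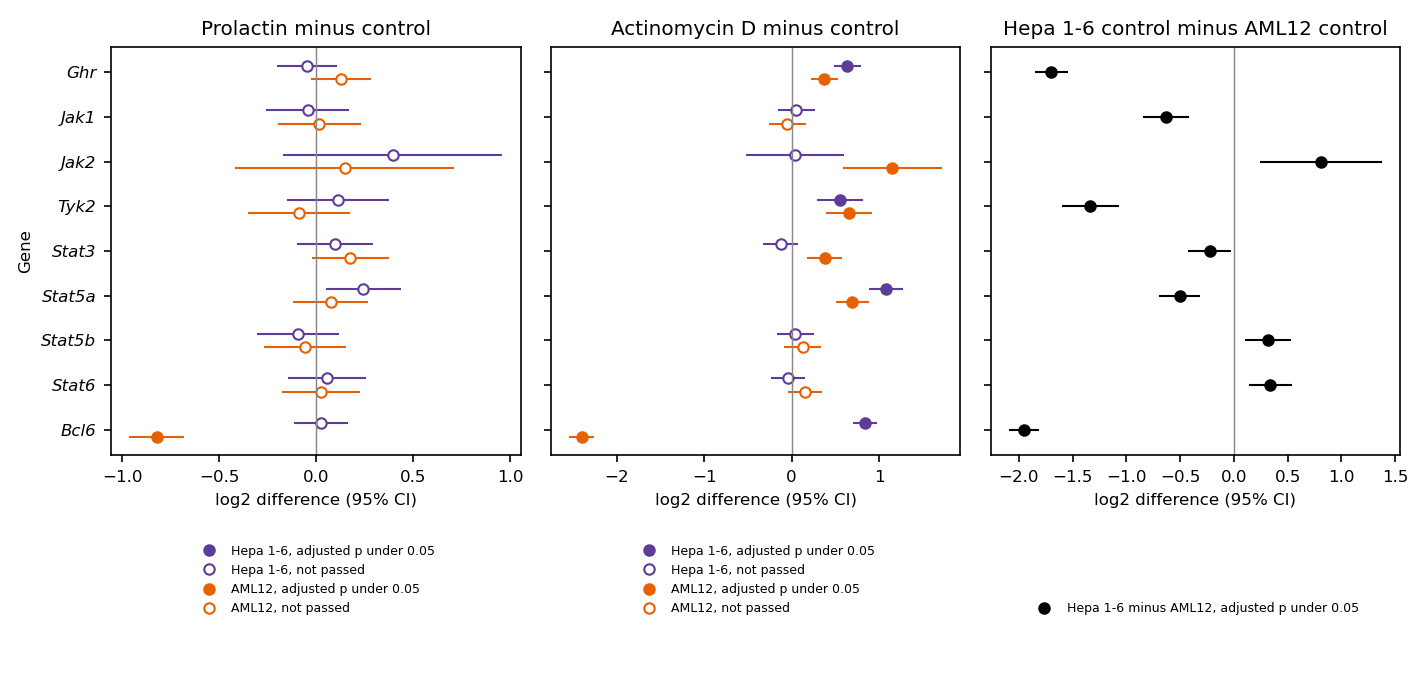
The x axis is the log2 difference with its 95% confidence interval for each of the 9 genes on the y axis, for prolactin minus control, actinomycin D minus control, and Hepa 1-6 control minus AML12 control. Filled points passed the test and open points did not. Under actinomycin D, Bcl6 lies at 0.84 in Hepa 1-6 and at -2.40 in AML12, while Ghr, Tyk2 and Stat5a lie above 0 in both lines.

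The features of a gene did not always agree under actinomycin D, and for Stat3 and Stat5b the feature designed on a cDNA clone record read lower than those on RefSeq transcripts. Of Stat3's 11 features, 10 lie on the same RefSeq transcript, so they are repeats of that transcript and not independent measurements. These 10 all rose in AML12, by 0.41 to 0.55, and lay between -0.03 and 0.04 in Hepa 1-6. The remaining feature, on a cDNA clone record, read -2.69 and -1.10 in Hepa 1-6 with actinomycin D, against -0.46 and -0.49 in controls, a change of -1.43 (adjusted p = 0.0252), and had a change of -0.45 in AML12 that did not pass (adjusted p = 0.413). The negative value of Stat3 in Hepa 1-6 therefore rested on that feature.

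Stat5b behaved likewise. Its 2 RefSeq features rose in both lines, by 0.54 and 0.67 in Hepa 1-6 and by 0.29 and 0.70 in AML12, while its clone feature fell by 1.09 in Hepa 1-6 (adjusted p = 0.00202) and by 0.62 in AML12 (adjusted p = 0.0249). The average over the 3 hid both. All 3 RefSeq features of Ghr rose, by 0.76 to 1.48 in Hepa 1-6 and by 0.41 to 1.04 in AML12. Its 2 clone features gave -0.22 and 0.19 in Hepa 1-6, with no call, and -0.51 and 0.46 in AML12, which both passed. Tested singly, each Ghr feature passed for the difference between the lines' responses. The RefSeq features, which share 1 transcript, had 0.35 to 0.50 (limma adjusted p = 0.00345 to 0.0342). The clone features had -0.68 and 0.71 (adjusted p = 0.0122 and 0.0229), so they differed in opposite directions. For Jak1 the clone features passed in opposite directions, at -0.65 and 0.60 in Hepa 1-6 and -0.67 and 0.46 in AML12. Its RefSeq feature rose by 0.22 in Hepa 1-6 (adjusted p = 0.0157) and had 0.07 in AML12 (adjusted p = 0.359).

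Across the array there was a lean in that direction with wide overlap. In 2268 other genes with both kinds of feature, the clone features read lower than the RefSeq features on balance, with a median difference of -0.35 in Hepa 1-6 and -0.27 in AML12. The lower and upper quartiles of these differences were -1.16 and 0.13 in Hepa 1-6, and -0.99 and 0.23 in AML12. The clone value was the lower in 68.0% of these genes in Hepa 1-6 and in 63.8% in AML12. Under prolactin a feature of Stat5b on its RefSeq transcript passed when features were tested singly: it had 0.43 and 0.29 in AML12 with prolactin, against 0.70 and 0.90 in controls (change -0.44, adjusted p = 0.0482). Its other RefSeq feature had -0.43 and -0.38, against -0.42 and -0.71, so the 2 features of that transcript differed.

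**Figure D4:**
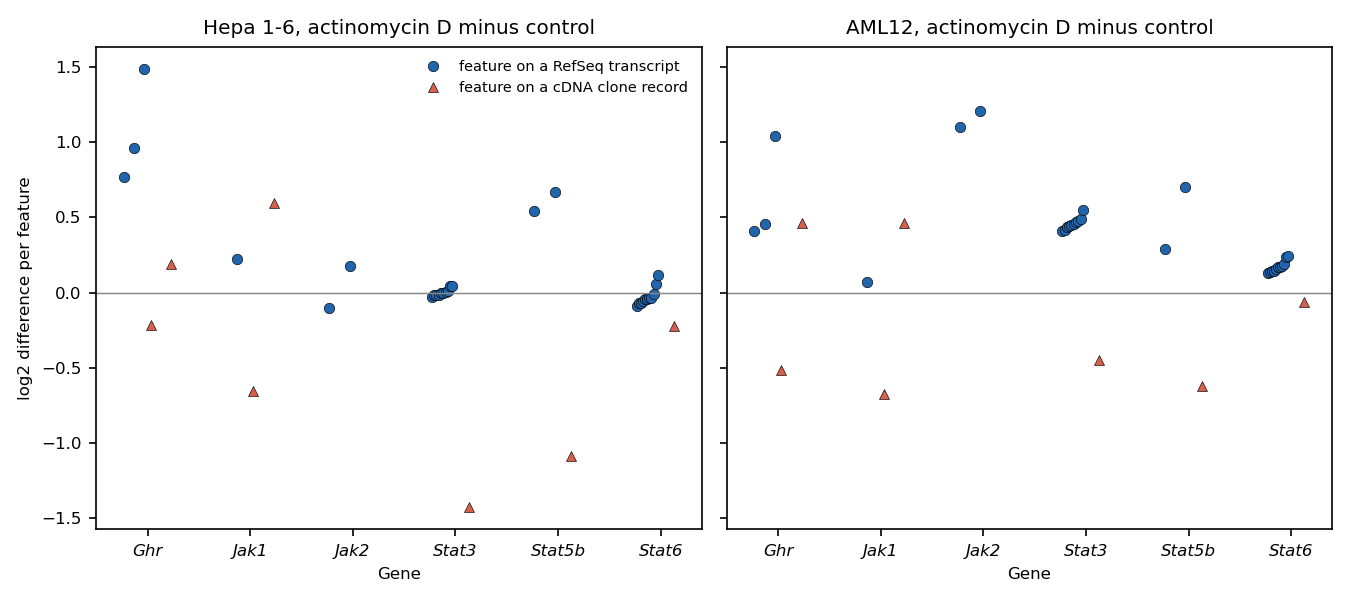
The y axis is the log2 difference between actinomycin D and control for each array feature of the 6 members with more than 1 feature, which are on the x axis, with Hepa 1-6 on the left and AML12 on the right. Circles are features on RefSeq transcripts and triangles are features on cDNA clone records. Each triangle of Stat3 and Stat5b lies below 0 while the Stat5b circles lie above it in both lines, and the Stat3 circles lie near 0 in Hepa 1-6 and at 0.41 to 0.55 in AML12.

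Among the lists under actinomycin D, 8 of the 13 other cytokine receptor genes rose and 1 fell in Hepa 1-6, with a median change of 0.36, and 9 rose and 1 fell in AML12, with a median of 0.57. These and the counts that follow stand beside the 27.9% of all genes called higher and 23% lower in Hepa 1-6, and 28% higher and 25.5% lower in AML12, with all-gene medians of 0.07 and 0.04. Osmr, a receptor for oncostatin M, rose by 1.21 ± 0.07 in Hepa 1-6 and by 1.57 ± 0.07 in AML12, and Il10rb, a subunit of the interleukin-10 receptor, by 0.79 ± 0.07 and 1.58 ± 0.07 (SE). Il4ra, which signals through Stat6, rose by 0.24 ± 0.09 in Hepa 1-6 (adjusted p = 0.0440) and fell in AML12, with a change of -0.56 ± 0.09 (adjusted p = 0.000827). Of the 17 other JAK, STAT and regulator genes, 5 rose and 2 fell in Hepa 1-6, with the rise near the share over all genes, and 4 rose and 8 fell in AML12. Jak3, a lymphoid kinase, rose by 0.29 ± 0.10 and 0.74 ± 0.10 in Hepa 1-6 and AML12, and Pias1, an inhibitor of STAT binding, changed by -0.94 ± 0.06 and -0.88 ± 0.06. Stat2 and Stat4 did not pass with either treatment in either line.

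Of the STAT5 target genes, 2 of 14 rose and 8 fell in Hepa 1-6, and none rose and 6 fell in AML12. Cish had -1.70 and -1.73 in Hepa 1-6 with actinomycin D, against -0.99 and -0.83 in controls, and -2.07 and -2.42 in AML12, against -0.26 and -0.48. It fell in both lines, by 0.81 ± 0.13 in Hepa 1-6 and 1.87 ± 0.13 in AML12 (SE, adjusted p = 0.00125 and 1.18e-05). Bcl2l1 fell by 1.22 ± 0.10 in Hepa 1-6 and 0.90 ± 0.10 in AML12. Of 12 BCL6 partner genes, 2 rose and 6 fell in Hepa 1-6, and 2 rose and 5 fell in AML12. Of 15 genes repressed by BCL6, 5 rose and 5 fell in Hepa 1-6, and 4 rose and 6 fell in AML12, with medians of 0.12 and -0.04. Among them Id2, an inhibitor of helix-loop-helix factors, changed by -1.21 ± 0.06 in Hepa 1-6 and -2.48 ± 0.06 in AML12, and Cd44, an adhesion receptor, rose by 0.87 ± 0.08 and 1.88 ± 0.08 (SE).

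At serum-free baseline all 9 members differed between the lines, 3 higher and 6 lower in Hepa 1-6. Of all genes 61.9% passed, 32.1% higher and 29.8% lower. The widest gaps were in Bcl6 and Ghr. Bcl6 had -1.63 and -1.52 in Hepa 1-6 controls, against 0.37 and 0.38 in AML12 controls, a difference of -1.95 ± 0.06 (SE, adjusted p = 4.76e-08) and a ratio 3.86-fold lower in Hepa 1-6. Ghr had -3.24 and -3.18, against -1.48 and -1.54, a difference of -1.70 ± 0.07 (SE, adjusted p = 1.69e-07) and 3.24-fold lower. The groups of both genes were far apart.

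Among the kinases, Tyk2 was lower in Hepa 1-6 by a difference of -1.34 ± 0.11 (SE, adjusted p = 1.52e-05) and Jak1 by -0.63 ± 0.09 (SE, adjusted p = 0.000421), whereas Jak2 was higher by 0.81 ± 0.24 (SE, adjusted p = 0.0193). Jak2 had 0.91 and 1.83 in Hepa 1-6 controls, against 0.62 and 0.50 in AML12 controls, so the groups did not overlap despite the spread in Hepa 1-6. The difference was 1.27 without the first Hepa 1-6 control array and 0.35 without the second, and its call was lost without either AML12 control array. Tested singly, the steadier feature of Jak2 had 1.16 (limma adjusted p = 3.97e-06) and the other 0.46 (adjusted p = 0.418). Among the STAT genes, Stat5a was lower in Hepa 1-6 (-0.50 ± 0.08, adjusted p = 0.000796), and Stat5b and Stat6 were higher (0.32 ± 0.09 and 0.34 ± 0.09, adjusted p = 0.0165 and 0.00874). The call of Stat5b rested on 1 of its 3 features, a RefSeq feature at 0.74 (adjusted p = 0.000118), while its other RefSeq feature had -0.028 (adjusted p = 0.860) and its clone feature 0.24 (adjusted p = 0.326). All 12 features of Stat6 passed, but 11 of them lie on the same RefSeq transcript and are not independent measurements. Stat3 was lower by a difference of -0.23 ± 0.09, close to the threshold (adjusted p = 0.0484). It was -0.12 with no call without the first AML12 control array, and the call was lost with most single arrays left out. None of its features passed singly, with limma adjusted p of 0.0789 to 0.380 for RefSeq and 0.251 for the clone. The call was also lost with quantile normalization (adjusted p = 0.516) and in the fit on the groups compared (adjusted p = 0.117). With each array left out in turn, 5 to 9 of the 9 members passed, and Ghr, Jak1, Tyk2, Stat5a and Bcl6 passed every time.

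Of the lists at baseline, 3 other cytokine receptor genes were higher and 7 lower in Hepa 1-6 among 13, and 7 other JAK, STAT and regulator genes were higher and 3 lower among 17. Stat2, the STAT of type I interferon signalling, was lower in Hepa 1-6, by a difference of -1.32 ± 0.09 (SE, adjusted p = 3.07e-06). Of 14 STAT5 target genes, 2 were higher and 6 lower. BCL6 partner genes were higher in 6 and lower in 3 of 12, and genes repressed by BCL6 higher in 6 and lower in 6 of 15. These counts stand beside the 32.1% of all genes called higher and 29.8% called lower in Hepa 1-6 controls.

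Some pairs of members varied together across arrays once each line's mean was subtracted, and others did not, which is a description over 12 arrays that share groups and reference. Ghr and Stat5a had a Pearson r of 0.937, Tyk2 and Stat5a 0.870, and Jak2 and Stat3 0.753. Bcl6 ran against Stat3, at -0.875, and against Jak2, at -0.796. Ghr had 0.0017 with Stat3, -0.033 with Stat6 and -0.084 with Bcl6, Jak1 had -0.030 with Tyk2, and Stat5b had 0.055 with Stat3. Across genes other than predicted and unnamed gene models, the patterns most like Bcl6 were those of Creb3l2 (r = 0.992), Cdyl (0.981) and Fam102a (0.979). Those most like Ghr were Kank3 (0.994), Rnf20 (0.991) and Pvr (0.989), and those most like Stat5a were Zfand1 (0.993), Pcnx4 (0.991) and Pja2 (0.991). Tyk2 was most like Aldh2 (0.984), Jak2 most like Erlec1 (0.933) and Stat3 most like Wdr13 (0.954). The closest match was weaker for Stat5b (Rnf115, 0.932), Jak1 (Ntrk2, 0.913) and Stat6 (Cyb5r3, 0.904).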

How the data were processed

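RNA from 12 samples was hybridised to 2-colour Agilent mouse arrays, 1 per sample, with the sample in Cy5 and the reference in Cy3 on every array and no dye swap, per the labels. Per the submitters' processing notes, Agilent Feature Extraction produced the values; its version and settings were not given in the sources used here. Per array, the authors deposited 1 normalized value for each of 45018 features, taken here as a log10 ratio (sample over reference), since that software writes log10 and no base is stated. The deposited ratio columns ran from -3.12 to 2.94. Exact zeros, 12.7% of values, were taken as no ratio. Background and saturation marks were not used. Precision is limited by the small number of arrays.

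Ratios were multiplied by 3.32 to give log2 values, with no further scaling. A ratio on every array was required, which 35664 features met, and those annotated with a single gene symbol (28519) were averaged to 16549 genes. Group means over all 12 arrays were fitted with limma (version 3.58.1, run in R version 4.3.3) and moderated by eBayes, with two-sided tests, with 6 residual and 1.84 prior degrees of freedom and Benjamini-Hochberg adjustment at 0.05. The procedure was run on simulated data with independent normal noise on each array, for the AML12 prolactin comparison only. That simulation does not cover variation shared between arrays or the other comparisons. Each treatment was compared with its line's control, the lines' responses with each other, and the controls with each other. Alternatives changed the scaling, zeros, filter, feature rule, prior, block, samples in the fit, or left out each array.

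The members and the lists (other cytokine receptor genes, other JAK, STAT and regulator genes, STAT5 target genes, BCL6 partner genes, genes repressed by BCL6, and cell type markers) were chosen with earlier results of these data known. All 9 members were named. From each list the genes named were among the 2 largest rises and the 2 largest falls past the threshold per comparison, in either line, plus Jak3, Stat2 and Stat4. Cdkn1b and Cdkn2b fall outside that rule and were chosen after their values were seen, as were the single features described. For each member, up to 3 genes with the highest Pearson r over the 12 arrays, after each line's mean was subtracted, were named. Features were classed as RefSeq or cDNA clone by their accession. All 9 members matched the RefSeq promoter table (GRCm38.p6), from which the sequences were taken. Tables, motif searches and figures used Python 3.11.15 with pandas 2.3.3, numpy 2.4.6 and matplotlib 3.10.9. The microarray probe sequences were not used here.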

Additional observations from a re-analysis of the deposited data

Results flagged for a closer look

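These results were taken up because the responses of Hepa 1-6 and AML12 to the same treatment differed by a test of the difference itself (limma interaction, adjusted over 16549 genes). Each difference is the Hepa 1-6 response minus the AML12 response, in log2 units, with its SE and adjusted p. No cause was tested for any of them. The call of Bcl6 with prolactin was lost with some single arrays left out, as given above. So were those of Jak2, Stat3 and Stat5a with actinomycin D.

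With prolactin, Bcl6 differed by 0.85 ± 0.09 (adjusted p = 0.0163), with a response of 0.02 in Hepa 1-6 and -0.82 in AML12. Cish differed by -2.41 ± 0.18 (adjusted p = 0.00698), with -0.24 in Hepa 1-6 and 2.17 in AML12. Socs2 differed by -0.68 ± 0.08 (adjusted p = 0.0388), with 0.04 in Hepa 1-6 and 0.71 in AML12.

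With actinomycin D, 4 members differed. Bcl6 differed by 3.24 ± 0.09 (adjusted p = 2.03e-06), with 0.84 in Hepa 1-6 and -2.40 in AML12. Jak2 differed by -1.12 ± 0.34 (adjusted p = 0.0430), with 0.04 and 1.15, and Stat3 by -0.50 ± 0.12 (adjusted p = 0.0166), with -0.13 and 0.38. Stat5a rose in both lines, by 1.08 in Hepa 1-6 and 0.69 in AML12, and differed by 0.38 ± 0.12 (adjusted p = 0.0411).

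Among the named genes of the lists, Osmr differed by -0.36 ± 0.10 (adjusted p = 0.0296), Il10rb by -0.79 ± 0.10 (adjusted p = 0.000863), Il4ra by 0.81 ± 0.12 (adjusted p = 0.00225) and Jak3 by -0.45 ± 0.14 (adjusted p = 0.0420) in their response to actinomycin D. Cish differed by 1.07 ± 0.18 (adjusted p = 0.00413), with falls in both lines. Id2 also fell in both lines and differed by 1.26 ± 0.08 (adjusted p = 5.47e-05), and Cd44 rose in both and differed by -1.02 ± 0.11 (adjusted p = 0.000474).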

How the results depend on the processing

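Of 756 member values recomputed with an array left out, 688 kept their direction and side of the threshold, as did 595 of 652 under other settings. An array outside the groups compared leaves the change itself as it was and alters only the spread. Direction could not turn in those cases, so the first count overstates stability. The causes of the changes below were not tested except where the setting shows them.

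The count of members called in the prolactin comparison of AML12, 1 in the main analysis, was 2 with every feature tested by itself, and 0 in the fit on the line's 6 arrays, in the fit on the groups compared, and with the lowest 20% of mean ratios left out, a filter that removes Bcl6 and Ghr. For Hepa 1-6 it was 0 under every setting run. With every feature by itself, the feature with the smallest p stands for each member in each comparison, a choice that favours calls. The count for the difference in prolactin response, also 1, was 0 with the replicate block, in the fit on the groups compared and under that filter, and 0 to 1 with an array left out. For actinomycin D in Hepa 1-6 the count of 4 became 7 with every feature by itself, 7 with the highest feature per gene and 2 under the filter. For actinomycin D in AML12 the count of 6 ran from 4, under the filter, to 8, with every feature by itself, and was 6 with each array left out. There Jak2 lost its call with the highest feature per gene (adjusted p = 0.0717) and Stat3 in the fit on the groups compared (adjusted p = 0.0526). For the difference in actinomycin D response, 4 became 2 with quantile normalization, 2 in the fit on the groups compared and 2 to 3 with an array left out. At baseline 9 became 5 to 9 with an array left out.

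The replicate numbers of the labels share only a number: same-numbered arrays deviated together with r between -0.05 and 0.16 over 15 pairs of groups. With the replicate block, Bcl6 in the difference of prolactin responses (adjusted p = 0.0583), Stat5a in that of actinomycin D responses (0.0610) and Stat3 at baseline (0.0604) lost their calls.

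Directions turned as follows, mostly for changes near 0. With every feature by itself, the direction is that of the feature with the smallest p. For Jak1 in AML12 with actinomycin D, another feature passed in the opposite direction, at -0.67. With every feature by itself, Jak2 in Hepa 1-6 with actinomycin D was -0.10, Jak1 in AML12 with actinomycin D 0.46 (adjusted p = 0.00393), Jak1 in Hepa 1-6 with prolactin 0.11, Jak1 and Stat5b in the difference of prolactin responses 0.075 and 0.22, and Stat5b in the difference of actinomycin D responses 0.25. With the highest feature per gene, Stat3 in AML12 was -0.070 with prolactin and -0.45 with actinomycin D (adjusted p = 0.420), Stat3 in the difference of prolactin responses 0.13, Jak1 in Hepa 1-6 with actinomycin D -0.65 (adjusted p = 0.0361), Jak1 in AML12 with prolactin -0.068, Stat6 in Hepa 1-6 with actinomycin D 0.12, and Stat5b 0.22 and 0.25 in the differences of prolactin and actinomycin D responses. With median centring, Stat6 in Hepa 1-6 and Jak1 in AML12 with actinomycin D were 0.0020 and 0.046. With quantile normalization, Jak1 was 0.11 in AML12 with actinomycin D and -0.051 in the difference of those responses, Ghr in Hepa 1-6 with prolactin 0.017, and Stat5b and Jak2 in Hepa 1-6 with actinomycin D -0.0051 and -0.11.

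With an array left out, Jak2 ran from -0.066 to 0.86 with prolactin and from -0.42 to 0.50 with actinomycin D in Hepa 1-6, and from -0.21 to 0.71 in the difference of prolactin responses, through the Hepa 1-6 control arrays. Under actinomycin D, Jak1 ran from -0.072 to 0.18 in Hepa 1-6, from -0.13 to 0.036 in AML12 and from -0.024 to 0.23 in the difference, Stat5b from -0.077 to 0.16 in Hepa 1-6 and from -0.20 to 0.036 in the difference, and Stat6 from -0.12 to 0.039 in Hepa 1-6. Under prolactin, Bcl6 ran from -0.028 to 0.078 and Stat6 from -0.023 to 0.14 in Hepa 1-6, and Tyk2 from -0.24 to 0.061, Stat5a from -0.024 to 0.17 and Stat6 from -0.073 to 0.12 in AML12. In the difference of prolactin responses, Stat3 ran from -0.19 to 0.024, Stat5b from -0.10 to 0.028 and Stat6 from -0.067 to 0.13. None of these passed with an array left out, other than Jak2 in Hepa 1-6 with actinomycin D.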
